A study of Homo sapiens with 2 samples.

Results

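The genes described here are 58 components of the interferon system: receptors, JAK kinases, STAT and IRF transcription factors, SOCS inhibitors, sensors of foreign nucleic acid with their adaptors, and interferon-stimulated genes. They were chosen by name, as the rows of both deposited tables whose symbol is in that list, and all 58 were found among 26255 rows. RNA was sequenced from OVSAHO, an established line of human ovarian cancer cells, in 2 libraries. The A2-siA4 library came from cells with SMARCA2 expression raised (labelled stable) and SMARCA4 expression knocked down. The control library came from cells labelled wild type, named Ctrl-siNC in the design text. Both cultures were kept in carboplatin, a platinum drug that crosslinks DNA, at 25 µM for 2 days, so no library shows the cells without the drug. SMARCA2 and SMARCA4 are the alternative ATPases of SWI/SNF, the complex that moves nucleosomes. The labels do not say which vector or promoter drives SMARCA2, what vector the control carries, or whether each line is 1 clone.

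Interferons are secreted proteins that switch on antiviral genes in the cells that receive them. RIG-I-like receptors in the cytoplasm recognise foreign RNA and cGAS recognises DNA. They signal through MAVS and STING to the kinase TBK1, which activates IRF factors that induce interferon genes. Type I interferon binds the receptor chains IFNAR1 and IFNAR2, whose kinases TYK2 and JAK1 phosphorylate STAT proteins. A complex that contains STAT2 and IRF9 then binds the interferon-stimulated response element (ISRE) in the promoters of interferon-stimulated genes. Interferon gamma acts through IFNGR1, IFNGR2, JAK1 and JAK2 on a different element, the gamma-activated site (GAS).

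The values are FPKM, fragments per kilobase of transcript scaled by the size of the library, which is a level per length and can be compared between genes. How that size was set is not stated. There was 1 library per group. No SD, standard error or p-value can be given, and each difference is between these 2 libraries. The log2 ratio sets FPKM + 1 in A2-siA4 cells over FPKM + 1 in control cells. Genes were called by a rule of size: 1 FPKM in at least 1 library, and a log2 ratio of 1 or more (higher) or of -1 or less (lower). Folds in the text are ratios of FPKM without the added 1, and are given for genes on either side of the rule. The range after a fold is a 95% exact binomial (Clopper-Pearson) interval on fragment numbers estimated from FPKM. It covers counting error of fragments only, without regard to PCR copies, and says nothing of how cultures vary. An interval that excludes 1 was common. It was found for 35 of the 49 genes described here that reached 1 FPKM (71.4%). Of 11263 genes at that level with an interval, 71.8% had one.

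The depth that the FPKM values imply was estimated at 8850000 fragments for the A2-siA4 library and 9050000 for the control library. As a check of the labels, SMARCA2 was at 2.60 FPKM in A2-siA4 cells and 0.205 FPKM in control cells, and SMARCA4 was at 4.49 FPKM in A2-siA4 cells and 27.9 FPKM in control cells. Of 8 serous ovarian cancer cell markers, 7 were above 0 in A2-siA4 cells and 8 in control cells, with PAX8 at 42.1 FPKM in A2-siA4 cells and 21.9 FPKM in control cells and EPCAM at 40.9 FPKM in A2-siA4 cells and 27.1 FPKM in control cells. Of that list KRT7 was lower, at 119 FPKM in A2-siA4 cells and 539.6 FPKM in control cells, and WT1 was higher, at 5.52 FPKM in A2-siA4 cells and 1.53 FPKM in control cells. Of 10 leukocyte markers, 4 were above 0 in A2-siA4 cells and 5 in control cells, with a summed level of 12.4 FPKM in A2-siA4 cells and 38.6 FPKM in control cells. PTPRC, CD3E, CD2, MS4A1 and NKG7 were listed at 0 in both, and CD68 made up most of the sum, at 11.1 FPKM in A2-siA4 cells and 34.9 FPKM in control cells. The part of these marker differences in the values of the interferon genes was not tested. Of 9 fibroblast and endothelial markers, 5 were above 0 in A2-siA4 cells and 4 in control cells. None of the 9 reached 1 FPKM in either library, and they summed to 0.545 FPKM in A2-siA4 cells and 0.503 FPKM in control cells. By that cut-off, 7 of the 8 serous markers and 2 of the 10 leukocyte markers reached 1 FPKM in a library. In bulk RNA, fewer cells that express a gene and less RNA of it per cell cannot be told apart.

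Most of the interferon genes lay within 2-fold between the libraries. Of the 58, 49 reached 1 FPKM in a library. In A2-siA4 cells 2 of these were higher, 5 were lower and 42 lay in between. The higher genes were STAT2 and SOCS3. The lower genes were IRF9, IFI27, IFITM1, IFIT5 and OAS1. Over all 11785 genes at that level, 7.85% were higher, 7.61% lower and 15.5% either by the same rule. The shares of the 49 were 4.08% higher and 10.2% lower, near that background. The median log2 ratio of the 49 was -0.27, beside -0.06 over all genes, and 32 of the 49 (65.3%) had a ratio below 0, beside 53.5% of all genes. With both libraries scaled to a common sum, 28 of 50 (56.0%) were below 0, beside 45.8% of all genes. The same 5 and 2 genes then passed the rule, as did 5.70% of all genes in the lower and 10.5% in the higher direction. At 1.5-fold, 13 of the 49 were lower (26.5%, beside 21.3% of all genes) and 2 were higher (4.08%, beside 19.1%), the same 2 genes.

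The other 9 genes were below 1 FPKM in both libraries. STAT5A, IRF7 and MB21D1 were listed at 0 in both, 3 of 58, as were 35.9% of all 26255 genes. An exact 0 in a table of FPKM can be a failed estimate, so these genes are described only as listed at 0. SOCS2 was at 0 FPKM in A2-siA4 cells and 0.0473 FPKM in control cells, about 1 fragment, and STAT6 rested on about 1 fragment in each library. JAK2, IFI44, IFI44L and XAF1 were the remaining ones, and their levels are given with their families.

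**Figure D1:**
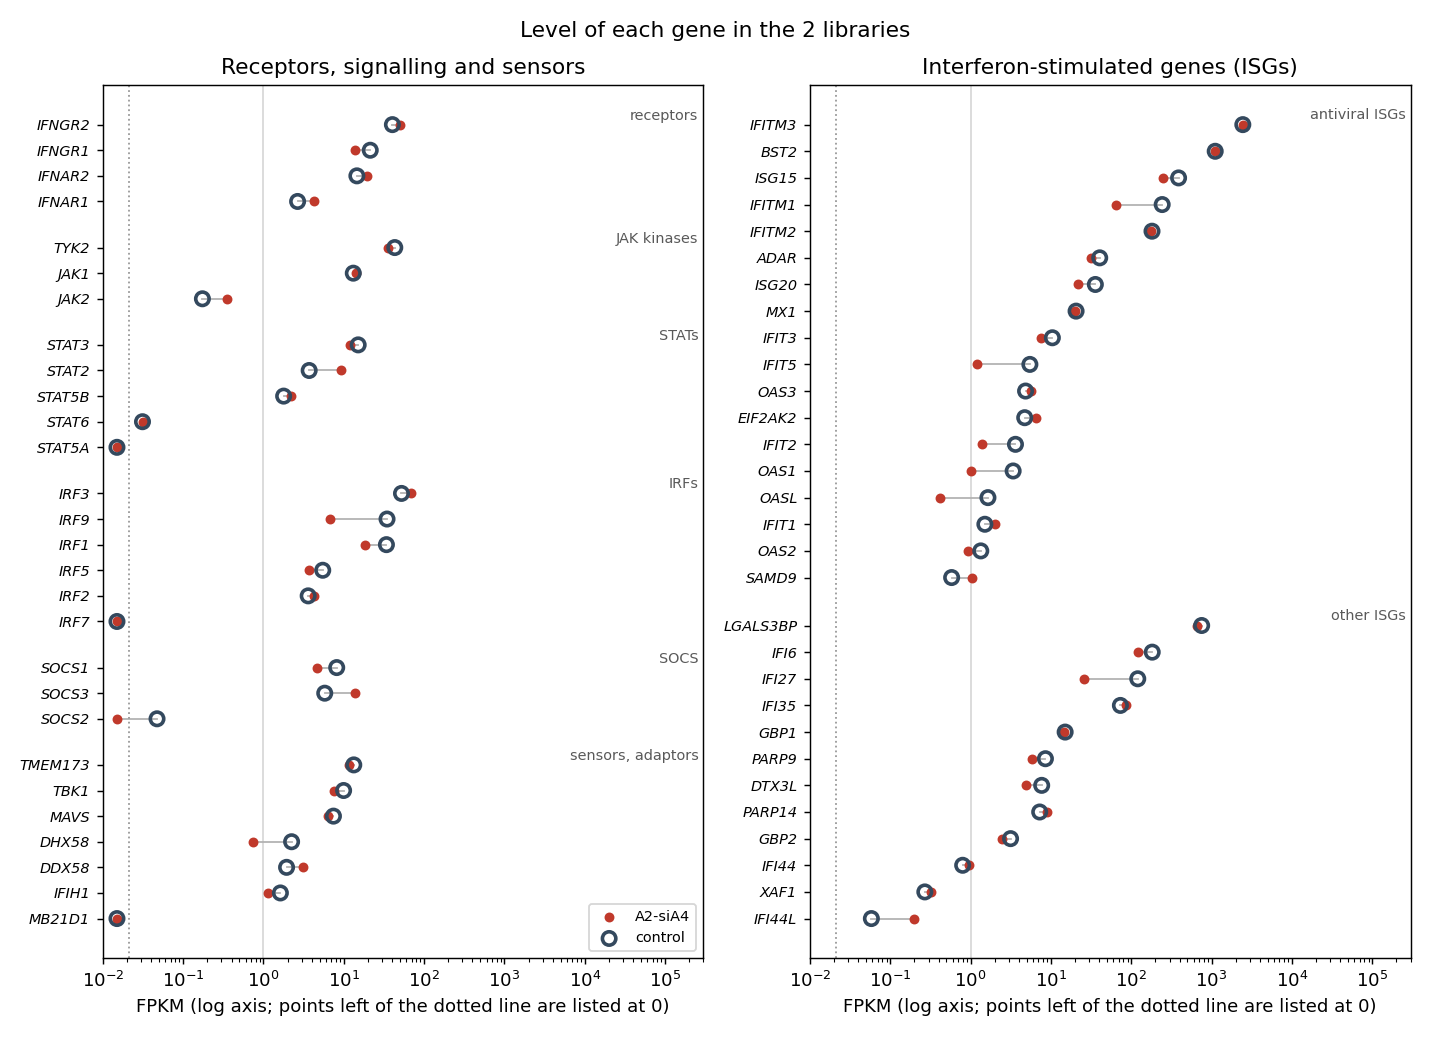
Level of each of the 58 genes in FPKM on a log axis, grouped by role, in the A2-siA4 library (filled points) and the control library (open circles), with points left of the dotted line listed at 0. Levels run up to 2472 and 2451 FPKM for IFITM3, and the widest gaps with the open circle to the right are those of IRF9, IFI27 and IFIT5.

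All 4 receptor chains were expressed in both libraries and none passed the rule. IFNAR1 was at 4.25 FPKM in A2-siA4 cells and 2.66 FPKM in control cells, and IFNAR2 was at 19.4 FPKM in A2-siA4 cells and 14.6 FPKM in control cells. IFNGR2, the accessory chain for interferon gamma, was at 49.6 FPKM in A2-siA4 cells and 40.3 FPKM in control cells. These 3 genes lie in a cluster on chromosome 21, which also holds IL10RB, and their levels in A2-siA4 cells were 1.60, 1.33 and 1.23 times those in control cells. IFNGR1, the chain that binds interferon gamma, stood on the other side of 1, at 13.6 FPKM in A2-siA4 cells, against 21.4 FPKM in control cells, a fold of 0.639 (0.541 to 0.753). GENCODE 29 annotates AP000295.1 on the same strand over 2038 exon bases of IFNAR2 and IL10RB-DT on the opposite strand over 1803, so the IFNAR2 value may hold reads of both.

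Of the kinases, JAK1, which serves both interferon types, was at 14.3 FPKM in A2-siA4 cells and 13.1 FPKM in control cells, and TYK2, which sits on IFNAR1, was at 35.3 FPKM in A2-siA4 cells and 43.1 FPKM in control cells. These levels differed by little, with folds of 1.09 (0.969 to 1.22) and 0.818 (0.759 to 0.880). JAK2, which serves the interferon gamma receptor, was far lower at 0.355 FPKM in A2-siA4 cells and 0.174 FPKM in control cells, on about 16 fragments in A2-siA4 cells and 8.0 in control cells. Its fold of 2.04 (0.825 to 5.52) has an interval that spans 1.

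The transcription factor partners that bind the ISRE together differed in opposite directions. STAT2 was at 9.17 FPKM in A2-siA4 cells, against 3.71 FPKM in control cells, 2.47-fold higher (1.95 to 3.16) with a log2 ratio of 1.11. IRF9, the DNA-binding partner, was at 6.65 FPKM in A2-siA4 cells, against 34.6 FPKM in control cells, 5.20-fold lower (4.17 to 6.53), with a log2 ratio of -2.22. IRF9 had the lowest log2 ratio of the 58 genes, and STAT2 the highest. STAT2 rested on about 241 fragments in A2-siA4 cells and 99.5 in control cells, and IRF9 on about 96.4 in A2-siA4 cells and 512 in control cells. GENCODE 29 annotates a second locus on the same strand, AL136295.5, over all 1838 bases of the IRF9 transcript, so reads from it would count as IRF9.

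The other factors lay within 2-fold. IRF1, a factor induced by interferon gamma through a GAS, was at 18.3 FPKM in A2-siA4 cells, against 34 FPKM in control cells, 1.85-fold lower (1.67 to 2.06). IRF3, the factor that TBK1 activates, was the most abundant IRF in both libraries, at 68.6 FPKM in A2-siA4 cells and 52.3 FPKM in control cells. IRF5 was at 3.69 FPKM in A2-siA4 cells and 5.47 FPKM in control cells, and IRF2, a repressor of interferon-induced genes, was at 4.28 FPKM in A2-siA4 cells and 3.60 FPKM in control cells. The antisense neighbours C5orf56 and BCL2L12 share exon bases with IRF1 and IRF3, which makes both values uncertain. STAT3, which relays interleukin-6 family cytokines, was at 12.1 FPKM in A2-siA4 cells and 15.1 FPKM in control cells, and STAT5B was at 2.19 FPKM in A2-siA4 cells and 1.78 FPKM in control cells. These levels put STAT3 above STAT2 in each library, by less in A2-siA4 cells.

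Among the SOCS genes, which encode feedback inhibitors of JAK-STAT signalling, SOCS3 passed the rule and SOCS1 had a ratio below 0. SOCS3, best known as the inhibitor of STAT3 signalling, was at 13.6 FPKM in A2-siA4 cells, against 5.79 FPKM in control cells, 2.35-fold higher (1.91 to 2.90). SOCS1, an inhibitor of interferon receptor signalling, was at 4.67 FPKM in A2-siA4 cells, against 8.16 FPKM in control cells, 1.75-fold lower (1.18 to 2.61), short of the rule at a log2 ratio of -0.69. In A2-siA4 cells SOCS3 was thus the more abundant of the pair, and in control cells SOCS1 was.

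**Figure D2:**
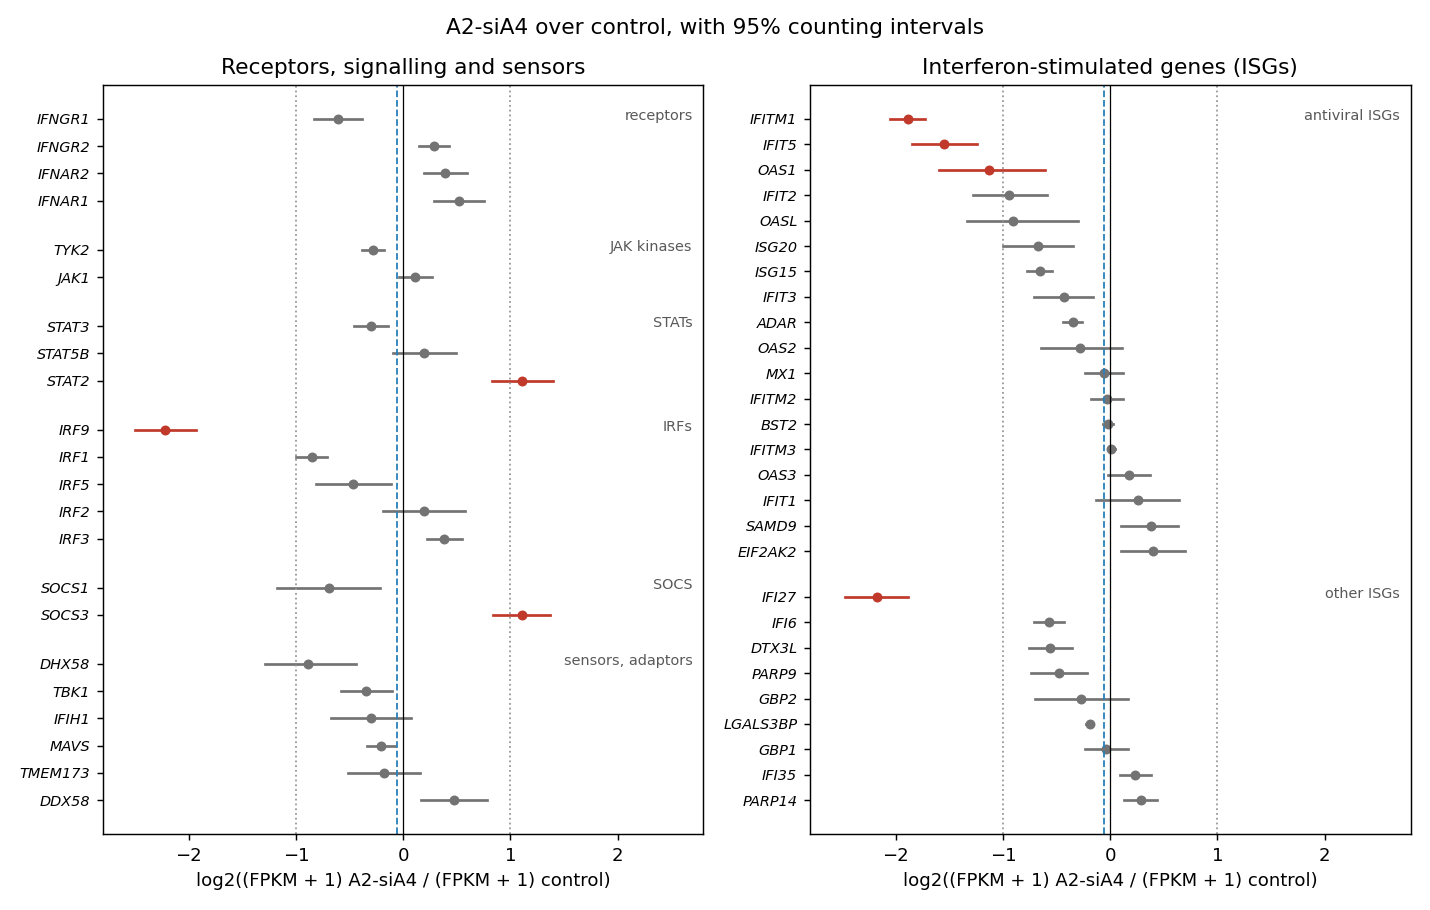
Log2 ratio of A2-siA4 over control, with 1 FPKM added to each level, for the 49 genes that reached 1 FPKM, grouped by role, where bars are 95% counting intervals, dotted lines mark the rule at -1 and 1, and the dashed line is the median of all genes, -0.06. Red points passed the rule: IRF9, IFI27, IFITM1, IFIT5 and OAS1 on the left, STAT2 and SOCS3 on the right.

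None of the sensors and adaptors passed the rule. Of the RIG-I-like receptors, DDX58 (RIG-I itself) was at 3.10 FPKM in A2-siA4 cells, against 1.94 FPKM in control cells, 1.60-fold higher (1.18 to 2.17). IFIH1 (MDA5) was at 1.13 FPKM in A2-siA4 cells and 1.62 FPKM in control cells, and its counting interval spans 1. DHX58 (LGP2), a member of the family without a signalling domain, was at 0.747 FPKM in A2-siA4 cells, against 2.24 FPKM in control cells, 3.0-fold lower (1.68 to 5.65) on about 16 fragments in A2-siA4 cells and 49 in control cells. The 3 sensors of this family therefore had ratios on both sides of 0. The adaptors MAVS, at 6.32 FPKM in A2-siA4 cells and 7.43 FPKM in control cells, and TMEM173 (STING), at 11.7 FPKM in A2-siA4 cells and 13.3 FPKM in control cells, and the kinase TBK1, at 7.63 FPKM in A2-siA4 cells and 9.95 FPKM in control cells, lay within 1.5-fold. MB21D1 (cGAS) was listed at 0 in both libraries.

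All 30 interferon-stimulated genes were above 0 in both libraries and 27 reached 1 FPKM in one. Of the 27, 4 were lower by the rule (14.8%, beside 7.61% of all genes) and none was higher. A ratio below 0 was found in 20 of them (74.1%, beside 53.5% of all genes). With the libraries scaled to a common sum it was found in 16 of 28 (57.1%, beside 45.8%). Their median log2 ratio was -0.28. The 58 genes summed to 5397 FPKM in A2-siA4 cells and 6018 FPKM in control cells, or 0.623% and 0.630% of the library's summed FPKM. IFITM3, BST2 and LGALS3BP alone made up 78.3% of that sum in A2-siA4 cells and 71.7% in control cells. IFITM3, which blocks virus entry at endosomes, was at 2472 FPKM in A2-siA4 cells and 2451 FPKM in control cells, which ranked 43 among all genes in A2-siA4 cells and 51 in control cells. BST2 (tetherin), which holds budding virus at the cell surface, was at 1093 FPKM in A2-siA4 cells and 1111 FPKM in control cells. LGALS3BP, a secreted glycoprotein that binds galectins, was at 659 FPKM in A2-siA4 cells and 753 FPKM in control cells. The levels of these abundant genes differed little, with folds of 1.01 (0.984 to 1.03), 0.984 (0.954 to 1.02) and 0.875 (0.855 to 0.896).

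The IFITM genes, which encode small membrane proteins that restrict virus entry, lie within 200 kb on chromosome 11 and had unlike ratios. IFITM1 was at 64.8 FPKM in A2-siA4 cells, against 243 FPKM in control cells, 3.75-fold lower (3.34 to 4.21), with a log2 ratio of -1.89. IFITM2 was at 178 FPKM in A2-siA4 cells and 181 FPKM in control cells, and its fold of 0.978 (0.882 to 1.08) has an interval that spans 1. IFITM1 was above IFITM2 in control cells and below it in A2-siA4 cells. The IFITM genes have near-identical copies, and how reads that match several places were counted is not given in the sources used here, so the split between them is uncertain.

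The IFIT genes encode proteins that bind foreign RNA ends, and 4 of them sit together on chromosome 10. IFIT5 was at 1.21 FPKM in A2-siA4 cells, against 5.47 FPKM in control cells, 4.53-fold lower (3.22 to 6.53). IFIT2 was at 1.40 FPKM in A2-siA4 cells, against 3.62 FPKM in control cells, 2.58-fold lower (1.78 to 3.79), just short of the rule at a log2 ratio of -0.94. IFIT3 was at 7.45 FPKM in A2-siA4 cells and 10.4 FPKM in control cells, and IFIT1 was at 2.0 FPKM in A2-siA4 cells and 1.51 FPKM in control cells. IFIT1 lies between IFIT3 and IFIT5 and alone of the 4 had a ratio above 0, with a fold of 1.33 (0.869 to 2.04).

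The OAS genes encode enzymes that make the second messenger for RNase L when they meet double-stranded RNA. OAS1 was at 1.0 FPKM in A2-siA4 cells, against 3.39 FPKM in control cells, 3.37-fold lower (1.88 to 6.43) on about 15.1 fragments in A2-siA4 cells and 52.2 in control cells. OASL, a family member without that enzyme activity, was at 0.412 FPKM in A2-siA4 cells, against 1.64 FPKM in control cells, 3.99-fold lower (1.52 to 12.7). It rested on about 5.46 fragments in A2-siA4 cells and 22.2 in control cells, and the added 1 FPKM, which shrinks ratios of weak genes, kept it within the rule at -0.90. OAS2 was at 0.931 FPKM in A2-siA4 cells and 1.34 FPKM in control cells, and OAS3, the most abundant of the 4, at 5.61 FPKM in A2-siA4 cells and 4.84 FPKM in control cells. OAS1, OAS3 and OAS2 are neighbours on chromosome 12, and of these OAS1 alone passed the rule. OAS1 shares 92 exon bases with the antisense gene AC004551.1.

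**Figure D3:**
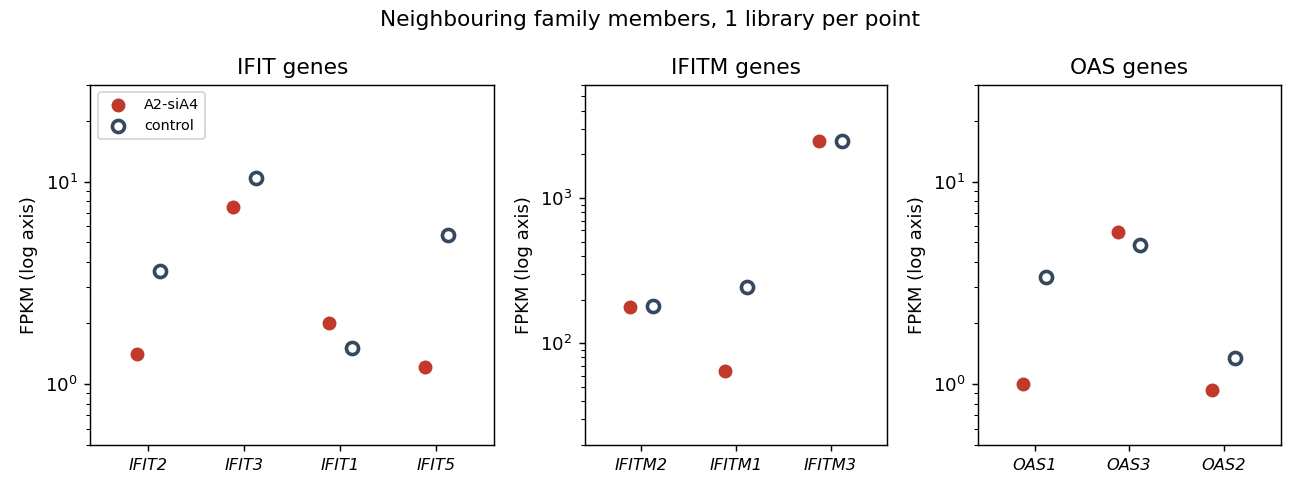
FPKM on log axes of the neighbouring IFIT, IFITM and OAS genes in their order along the chromosome, with 1 point per library, A2-siA4 filled and control open. The open circle lies well above the filled one for IFIT5, IFIT2, IFITM1 and OAS1, and close to it or below it for IFIT1, IFITM2, IFITM3 and OAS3.

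IFI27 (ISG12a), a small mitochondrial protein gene used in many interferon scores, was at 25.9 FPKM in A2-siA4 cells, against 121 FPKM in control cells, 4.66-fold lower (3.79 to 5.78). IFI6, a related small protein, was at 122 FPKM in A2-siA4 cells, against 183 FPKM in control cells, 1.49-fold lower (1.35 to 1.65). ISG15, the ubiquitin-like modifier, was at 246 FPKM in A2-siA4 cells, against 389 FPKM in control cells, 1.58-fold lower (1.46 to 1.71), and ISG20, an exonuclease, was at 22 FPKM in A2-siA4 cells, against 35.8 FPKM in control cells, 1.62-fold lower (1.28 to 2.06). These 4 genes are among the usual markers of an interferon response, and each had a lower FPKM in A2-siA4 cells, with IFI27 alone past the rule. Such genes were not lower throughout. Of the 27 interferon-stimulated genes that reached 1 FPKM, 20 had a ratio below 0 and 7 above it, IFIT1 among the 7. IFI44 and IFI44L, below 1 FPKM in both libraries, had folds of 1.21 (0.419 to 3.58) and 3.41 (0.874 to 19.4), with intervals that span 1. MX1, a GTPase that traps influenza and other viruses and another usual marker, was at 19.7 FPKM in A2-siA4 cells and 20.6 FPKM in control cells, a fold of 0.958 (0.841 to 1.09).

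None of the remaining effectors passed the rule. ADAR, which edits adenosine in double-stranded RNA, was at 31.6 FPKM in A2-siA4 cells and 40.5 FPKM in control cells. EIF2AK2 (PKR), which stops translation on sensing such RNA, was at 6.55 FPKM in A2-siA4 cells, against 4.72 FPKM in control cells, 1.39-fold higher (1.09 to 1.78). SAMD9 was at 1.05 FPKM in A2-siA4 cells and 0.581 FPKM in control cells, 1.81-fold higher (1.18 to 2.83). The guanylate-binding proteins GBP1, at 14.7 FPKM in A2-siA4 cells and 15 FPKM in control cells, and GBP2, at 2.44 FPKM in A2-siA4 cells and 3.15 FPKM in control cells, have intervals that span 1, and IFI35 was at 86.4 FPKM in A2-siA4 cells and 73.3 FPKM in control cells. DTX3L and PARP9, whose proteins form one ubiquitin ligase complex, start head to head on opposite strands of chromosome 3, where their exons share 217 bases. DTX3L was at 4.89 FPKM in A2-siA4 cells and 7.68 FPKM in control cells, and PARP9, with a like ratio, was at 5.86 FPKM in A2-siA4 cells and 8.55 FPKM in control cells. PARP14, their neighbour, was at 9.05 FPKM in A2-siA4 cells and 7.25 FPKM in control cells, a fold above 1. Exon bases are also shared by IFIT2 with a locus on its own strand, and by EIF2AK2, MX1, TBK1, IFITM3, ISG15 and XAF1 with antisense loci. The last 3 genes were below 1 FPKM in both libraries and too weak for a call. IFI44 was at 0.962 FPKM in A2-siA4 cells and 0.797 FPKM in control cells, IFI44L was at 0.198 FPKM in A2-siA4 cells and 0.0582 FPKM in control cells, and XAF1 was at 0.320 FPKM in A2-siA4 cells and 0.269 FPKM in control cells.

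Promoter sequence was read for 45 of the 58 genes from RefSeq (GRCh38.p14), 250 bases before to 50 after the start of the gene. The genes without a window are in none of the motif counts and medians. Of these, IFIT2 (log2 ratio -0.94), OASL (-0.90), DHX58 (-0.89), OAS2, GBP2, TMEM173 and IFITM2 had ratios below 0. IFNAR2 (0.39), IRF3 (0.39) and IRF2 (0.20) had ratios above 0. IRF7, SOCS2 and MB21D1 were below 1 FPKM in both libraries. The ISRE core, searched on both strands, was GAAA, any 2 bases and GAAA again. It was in 22 of the 45 windows (48.9%), against 3.57% of all 35116 promoters in the table. It was in 20 of 25 windows of interferon-stimulated genes and 2 of 20 of the signalling and sensing genes, SOCS1 and IFIH1. Of the genes with the ISRE that reached 1 FPKM, 3 of 20 were lower and none higher, with a median log2 ratio of -0.25. Over all genes at that level 7.61% were lower and 7.85% higher. Of those without it, 2 of 19 were lower and 2 higher, with a median of -0.28. The GAS form TTCNNNGAA, which reads the same on both strands and can overlap the ISRE, was in 8 of 45 windows, against 7.66% of all promoters. Its 8 holders were IRF1, IRF9, IFITM1, OAS1, BST2, IFI27, IFI35 and PARP14, of which 4 were lower by the rule and none higher, with a median of -0.99. Of the 31 without it, 1 was lower and 2 were higher, with a median of -0.20. Outside the 58, 6.62% of the 559 genes with it at that level were lower, against 7.20% of those without it. Nothing about binding of any factor follows from such matches.

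The promoters below are shown because they belong to 4 of the genes that were lower and to 1 neighbour that was not. IFI27 (chr14:94110486-94110785, plus strand) and IFITM1 (chr11:313790-314089, plus strand) were taken by rule as the lower genes with the lowest ratios that hold an ISRE. IFIT5 (chr10:89414318-89414617, plus strand), IFITM3 (chr11:320811-321110, minus strand) and IRF9 (chr14:24161015-24161314, plus strand) were added after their values were seen. Each runs 5′ to 3′ along its gene, and capitals mark ISRE matches on either strand and GAS matches, which in IFI27 and IFITM1 overlap.
IFI27: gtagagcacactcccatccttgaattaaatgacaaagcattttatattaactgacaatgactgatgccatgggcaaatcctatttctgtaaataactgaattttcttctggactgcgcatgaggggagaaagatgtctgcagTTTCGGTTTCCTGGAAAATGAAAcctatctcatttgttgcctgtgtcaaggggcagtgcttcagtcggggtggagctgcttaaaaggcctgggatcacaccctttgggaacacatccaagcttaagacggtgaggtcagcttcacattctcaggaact
IFITM1: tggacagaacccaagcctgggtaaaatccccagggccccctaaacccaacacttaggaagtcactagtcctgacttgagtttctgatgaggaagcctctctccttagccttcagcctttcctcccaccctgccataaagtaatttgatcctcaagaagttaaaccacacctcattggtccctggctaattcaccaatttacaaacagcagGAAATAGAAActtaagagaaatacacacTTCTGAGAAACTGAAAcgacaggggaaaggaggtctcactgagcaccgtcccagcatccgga
IFIT5: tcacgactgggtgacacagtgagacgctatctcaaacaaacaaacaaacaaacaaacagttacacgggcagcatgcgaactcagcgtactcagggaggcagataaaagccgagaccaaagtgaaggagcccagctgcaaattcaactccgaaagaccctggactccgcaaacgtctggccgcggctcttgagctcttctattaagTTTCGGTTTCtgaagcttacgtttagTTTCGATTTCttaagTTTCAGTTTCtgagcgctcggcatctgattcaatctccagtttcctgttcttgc
IFITM3: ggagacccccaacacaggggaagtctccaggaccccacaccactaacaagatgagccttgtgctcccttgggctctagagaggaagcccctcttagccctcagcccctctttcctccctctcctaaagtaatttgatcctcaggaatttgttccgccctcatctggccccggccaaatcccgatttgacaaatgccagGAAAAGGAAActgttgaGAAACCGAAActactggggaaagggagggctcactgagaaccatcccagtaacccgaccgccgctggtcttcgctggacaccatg
IRF9: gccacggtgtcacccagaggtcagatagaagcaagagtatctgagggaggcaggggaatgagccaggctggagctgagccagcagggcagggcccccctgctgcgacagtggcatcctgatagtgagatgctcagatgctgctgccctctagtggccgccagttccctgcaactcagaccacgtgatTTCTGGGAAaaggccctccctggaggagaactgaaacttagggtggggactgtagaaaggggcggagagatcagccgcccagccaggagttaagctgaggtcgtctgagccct

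IFIT5 holds 3 ISRE matches, all on the opposite strand, and IFI27, IFITM1 and IFITM3 hold 2 each. IFITM1, 3.75-fold lower, and IFITM3, with a fold of 1.01, thus hold the same number. IFITM1 and IFI27 also hold a GAS match, while IFITM3 and IFIT5, which was lower too, hold none. The part of these matches in the ratios was not tested. IRF9 holds a GAS and no ISRE match.

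Of 21 interferon genes, the ligands of the pathway, 20 were listed at 0 in both libraries. The exception was IFNE, an epithelial interferon, at 0.0887 FPKM in A2-siA4 cells and 0 in control cells, about 1 fragment. Other genes of the pathway were taken from lists outside the 58. Of 57 other interferon-stimulated genes, 39 reached 1 FPKM in a library, 7 of these (17.9%, beside 7.61% of all genes) were lower, none was higher, and 32 of 39 had a ratio below 0 (82.1%, beside 53.5% of all genes). With the libraries scaled to a common sum, 30 had one (76.9%, beside 45.8%). Their median log2 ratio was -0.38. The 4 lowest were BATF2, IFI30, TRIM21 and ZNFX1. BATF2, a transcription factor induced by interferon gamma, was at 0.580 FPKM in A2-siA4 cells, against 3.70 FPKM in control cells, 6.39-fold lower (3.14 to 14.7). It rested on about 8.98 fragments in A2-siA4 cells and 58.6 in control cells. IFI30, a lysosomal reductase for antigen processing, was at 147 FPKM in A2-siA4 cells, against 422 FPKM in control cells, 2.87-fold lower (2.69 to 3.07). TRIM21, a cytosolic antibody receptor, was at 13.3 FPKM in A2-siA4 cells, against 33.7 FPKM in control cells, and ZNFX1, an RNA sensor, at 13.1 FPKM in A2-siA4 cells, against 30.2 FPKM in control cells. That scaling left 4 of the 39 lower, beside 5.70% of all genes, and put the median of all genes at 0.08, against -0.06 as deposited. The median of the 39 less that of all genes was -0.32 on both scales.

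**Figure D4:**
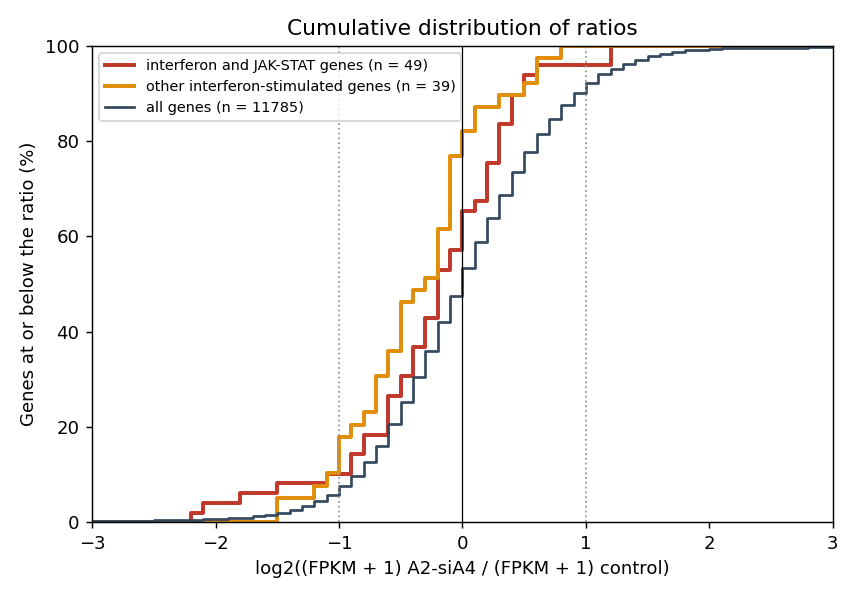
Percent of genes at or below each log2 ratio of A2-siA4 over control (with 1 FPKM added), for the interferon and JAK-STAT genes (49), other interferon-stimulated genes (39) and all genes (11785) that reached 1 FPKM. At a ratio of 0 the curves stand at 65.3%, 82.1% and 53.5%, as deposited.

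Of 26 other JAK-STAT regulators, 20 reached 1 FPKM in a library, and 2 were higher and 2 lower. These shares, 10% each, were near the 7.85% and 7.61% of all genes, and the median log2 ratio was 0.17. PTPN11 (SHP2), a phosphatase that acts on JAK and STAT proteins and in growth factor signalling, was at 16.8 FPKM in A2-siA4 cells, against 6.38 FPKM in control cells, 2.64-fold higher (2.25 to 3.10). IRF2BP2, a corepressor that binds IRF2, was at 20.5 FPKM in A2-siA4 cells, against 9.01 FPKM in control cells, 2.27-fold higher (2.0 to 2.58). CISH, a SOCS family member induced by STAT5, was at 2.07 FPKM in A2-siA4 cells, against 5.72 FPKM in control cells, 2.77-fold lower (1.86 to 4.20).

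Of 33 other genes of nucleic acid sensing, 25 reached 1 FPKM in a library, 1 was higher (4.0%, beside 7.85% of all genes) and 4 were lower (16%, beside 7.61%). The median log2 ratio was -0.25. TRIM25, a ubiquitin ligase that helps activate RIG-I, was at 6.19 FPKM in A2-siA4 cells, against 2.47 FPKM in control cells, 2.51-fold higher (2.03 to 3.11). TREX1, the exonuclease that degrades cytosolic DNA, was at 36 FPKM in A2-siA4 cells, against 88.9 FPKM in control cells, 2.47-fold lower (2.18 to 2.79). SAMHD1, which degrades deoxynucleotides, was at 5.40 FPKM in A2-siA4 cells, against 15.2 FPKM in control cells, 2.82-fold lower (2.39 to 3.33). PRKRA, an activator of PKR, was at 27.3 FPKM in A2-siA4 cells, against 68.5 FPKM in control cells, 2.51-fold lower (2.18 to 2.89), and POLR3C, a subunit of RNA polymerase III, at 20.7 FPKM in A2-siA4 cells, against 51.6 FPKM in control cells, 2.49-fold lower (2.18 to 2.85).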

How the data were processed

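RNA was measured in 1 A2-siA4 and 1 control culture of OVSAHO cells, grouped by the genotype labels. Per the labels' protocols, RNA was purified with a Qiagen micro kit, and libraries were made with SMART-Seq HT and Nextera XT. These kits do not mark strand. The authors deposited FPKM, 1 table per library. Cuffdiff 2.2.1, TopHat2 2.1.1, Bowtie2 2.2.8 and SAMtools 0.1.18 are listed in the submitters' processing notes, with build hg19. The annotation and scaling behind them are not stated there.

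The number of fragments per library was estimated from the steps between low FPKM values, over genes with a single GENCODE 29 transcript matched to RefSeq, as the depth and shortening of the transcript (200 bases) that put the most values in a window 2% wide at 1 fragment. The estimator was tested on simulated data of known depth. These were made with the same transcript lengths and the same form of shortening that the estimator assumes. The test therefore cannot show that the deposited FPKM follow that form. Fragment numbers used the median transcript length of a gene. PCR copies are not independent molecules. The intervals take each fragment as independent, so they can be too narrow even for counting error, and they cover no other error. A 2 kb transcript at 1 FPKM thus had about 15.9 fragments in the A2-siA4 library and 16.3 in the control library.

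The genes, lists and rules were chosen with earlier results of these data known. All 58 genes, the perturbed genes and in each other list at most 4 genes a direction past the rule were to be named, and 1 gene that this rule names is not reported here. Alternatives were other pseudocounts, scalings, level filters and fold thresholds, and a cubic trend on length, GC content and level removed. DDX58, TMEM173 and MB21D1 were matched to newer names for sequence. Neighbours are from RefSeq gene order, within 200 kb. Python 3.11.15 with NumPy 2.4.6, pandas 2.3.3 and SciPy 1.17.1 was used.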

Additional observations from a re-analysis of the deposited data

How the results depend on the processing

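The 5 lower and 2 higher genes kept the sign of their ratio in all 6 alternatives of pseudocount, scaling and trend. IRF9, IFI27 and IFITM1 stayed past 2-fold in each, and the other 4 did so in 5 of 6, all but the pseudocount of 5 FPKM. Of the genes named from other lists, TRIM25 fell short of 2-fold with the trend removed (log2 ratio 0.84) and at 5 FPKM (0.58). PRKRA (-0.988) and POLR3C (-0.999) fell just short with the trend removed. BATF2, ZNFX1, PTPN11, IRF2BP2, CISH and SAMHD1 fell short at 5 FPKM. IFI30, TRIM21 and TREX1 stayed past 2-fold in each. With a pseudocount of 0.1 FPKM, 8 of the 49 genes were lower (10.8% of all genes), with DHX58, IFIT2 and OASL added, and 2 higher (13.8% of all genes). With 5 FPKM, 3 were lower (3.22% of all genes) and 0 higher (1.86%). At 1.5-fold 13 were lower (21.3% of all genes), and at 4-fold 2 (IRF9 and IFI27) were lower (0.713% of all genes) and 0 higher (0.602%). The median log2 ratio, less that of all genes, ran from -0.25 to -0.06 for the members under the 9 alternatives that give one. For the other interferon-stimulated genes it ran from -0.35 to -0.14. Of the 39 other interferon-stimulated genes, 4 were lower with a pseudocount of 5 FPKM, beside 3.22% of all genes. Scaling to a common sum left 4 lower, beside 5.70%, and so did the trimmed mean of ratios, beside 6.02%. With a pseudocount of 0.1 FPKM, 9 were lower, beside 10.8% of all genes, and 3 higher, beside 13.8%. At 1.5-fold, 15 were lower, beside 21.3%, and 1 higher, beside 19.1%. At 4-fold, 0 were lower, beside 0.713%, and 0 higher, beside 0.602%. Scaling to a common sum moved the share of higher genes among all genes past 2-fold from 50.8% to 64.7%, and left the 2 higher and 5 lower members. The ISRE core followed by CT was in 13 of 45 windows, against 22 for the core. Depth limits the weak genes: 3 of the 49 had fewer than 20 fragments in a library. No paired analysis was possible because each group has 1 library, and no library could be left out.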

Other observations

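Outside the 58 genes, 217 genes at 1 FPKM or more in a library hold the ISRE core (GAAA, any 2 bases, GAAA) in their promoter window. Of these, 16 (7.37%) were lower and 16 higher in A2-siA4 cells, and the median log2 ratio was -0.14. Among the 9038 genes without it, 7.16% were lower and 7.23% higher, with a median of -0.08. The GAS form TTCNNNGAA was in 559 genes outside the 58 at that level, of which 6.62% were lower, against 7.20% of those without it.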
